A study of Drosophila melanogaster with 3 samples.

Results

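Of the 295 Drosophila melanogaster genes that the authors listed as hosts of a stable intronic sequence RNA (sisRNA) in the unfertilized egg, 80 carried the canonical poly(A) signal and no variant of it. A sisRNA is an RNA that comes from an intron and persists after its host transcript has been spliced. The 72 hosts described here are those 80 without 8 genes (piwi, vig, l(2)NC136, CG3267, klc, Katanin-60, rga and RpS27) that were set aside by name. The rule that defines them uses the listed hexamers and gene names and no read count, but it was set with the share of these hosts that had a count already known. The study sequenced RNA of unfertilized eggs laid by flies of genotype y w, in 3 libraries with 1 library per group. One library held the whole RNA after ribosomal RNA had been depleted, and the others held the polyA-plus and polyA-minus fractions of such RNA. The deposited table gave 1 read count per sisRNA and tied it to none of the libraries. The fractions were therefore not compared, and no value had a replicate.

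The poly(A) signal is the short element in a new transcript that is read by the cleavage and polyadenylation specificity factor. The transcript is then cut a little downstream, and poly(A) polymerase adds the tail. A signal inside an intron can in principle end a transcript early, while an RNA cut out of its host by splicing carries no tail of its own unless it is cleaved and polyadenylated. Stable intronic RNAs are known from the oocytes and early embryos of frogs and flies, where they are deposited by the mother.

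The 3 hexamers in the lists are shown 5′ to 3′ because they define the set, with capitals at bases 2 and 3, counted from the 5′ end, where they differ.
canonical signal: aAUaaa
first variant: aUUaaa
second variant: aUAaaa
The first variant carries the change A2U against the canonical signal, and the second carries A2U and U3A. The canonical signal was listed for 137 hosts, with or without a variant. The first variant stood alone for 43 hosts and the second for 33. Where the authors searched is not stated in the labels or the lists, so a listed hexamer is not known to act as a signal.

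A read count was listed for 19 of the 72 members (26.4%, exact Clopper-Pearson 95% interval 16.7% to 38.1%). Over all 295 hosts the share with a count was 46.4%, and over the 223 other hosts it was 52.9% (118 hosts, 46.1% to 59.6%). Of the hosts with the canonical signal plus a variant 28 of 57 had a count (49.1%, 35.6% to 62.7%). With 1 variant alone the number was 36 of 76 (47.4%, 35.8% to 59.2%), with 2 variants 6 of 8, and with no hexamer 43 of 74 (58.1%, 46.1% to 69.5%). The members thus had the lowest share of the 5 classes, although their interval overlapped those of 3 classes, the canonical signal with a variant, 1 variant alone and 2 variants. Since that share was known when the set was chosen, it is given as a description. Genes are not replicates, and neither labels nor lists state how hosts were picked for counting, so these intervals describe the lists and no test was made. Keeping the 8 named genes gave 24 of 80 (30.0%), and setting the 28 named genes of all classes aside, a comparison added after the data were seen, left 100 of 195 other hosts with a count (51.3%, 44.0% to 58.5%).

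The share was lower among members than among the pooled other hosts on each of the 5 main arms, by unequal amounts. On 2L 1 of 14 members had a count (7.14%, 0.181% to 33.9%) against 18 of 34 other hosts (52.9%, 35.1% to 70.2%). On 2R the numbers were 4 of 19 (21.1%) and 17 of 39 (43.6%). On X they were 7 of 18 (38.9%) and 34 of 47 (72.3%). The arms with the smallest gaps were 3L, with 3 of 11 (27.3%) against 16 of 49 (32.7%), and 3R, with 4 of 9 (44.4%) against 33 of 54 (61.1%). The intervals of members and other hosts overlapped on 4 arms and were apart on 2L. On 2L they also overlapped once the named genes were left out of the other hosts too (15 of 29, 32.5% to 70.6%), or kept among the hosts with the canonical signal alone (2 of 16, 1.55% to 38.3%). Single classes did not all lie above the members. With 1 variant alone the share was 5 of 19 on 3L (26.3%), and with the canonical signal plus a variant it was 6 of 16 on 3R (37.5%). On 2R the class with 1 variant alone lay just above the members, with 4 of 16 (25.0%). Other classes lay far above, with intervals apart from that of the members. On X no hexamer had 14 of 15 (93.3%, 68.1% to 99.8%), where the interval of the members was 17.3% to 64.3%. On 2L the canonical signal plus a variant had 5 of 6 (83.3%, 35.9% to 99.6%), which overlapped once the named genes were kept. With the members spread over the 5 arms as they are, the rates of the other hosts would give 53.2% where the 71 members on those arms had 26.8%. The remaining member, CaMKII, was the single listed host on chromosome 4 and had no count.

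**Figure D1:**
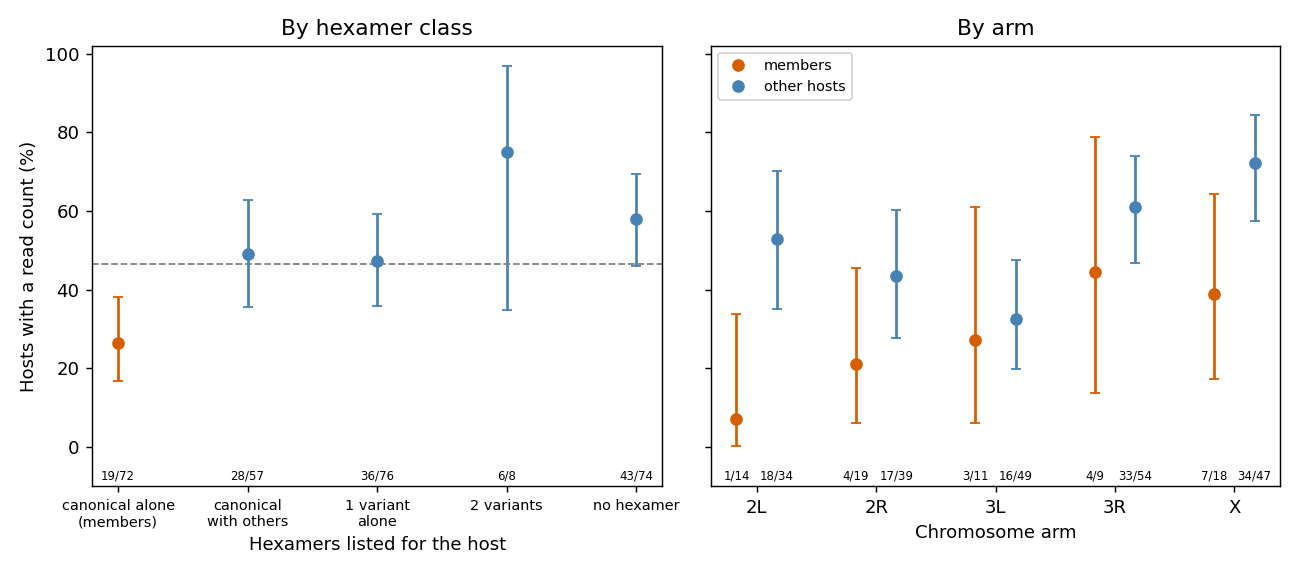
Percentage of hosts that also appear with a read count, by hexamer class (left) and by chromosome arm (right); points are shares, bars are exact 95% binomial intervals, the numbers under the points are hosts with a count over hosts listed, and the dashed line is the share over all hosts (46.4%). The members (orange) lie at 26.4% and are below the pooled other hosts (blue) on each of the 5 arms shown, with overlapping intervals on 4 of them and, once the named genes are left out on both sides, on 2L as well.

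The 19 counted members held 1915 of the 11169 listed reads (17.1%) and made up 13.6% of the 140 counted sisRNAs. Their counts ran from 9 to 869 reads. The median was 66 reads (95% interval from order statistics 20 to 91), beside 48 (40 to 61) over all 140 and 48 (39 to 56) over the 121 others. With the named genes left out of the others too, their median was 44 (37 to 52, n = 103). The intervals overlapped, so no difference in level was resolved. At least 100 reads were listed for 4 of the 19 (21.1%, 6.05% to 45.6%), where 20.7% of all counted sisRNAs reached that number. Under 20 reads were listed for another 4 (21.1%), against 17.9% of all counted sisRNAs. Both shares were near those of the whole list. The medians of the other classes were 47 reads (39 to 92, n = 30) for the canonical signal with a variant, 52 (30 to 85, n = 36) for 1 variant alone, 85 (23 to 383, n = 6) for 2 variants and 36 (27 to 56, n = 44) for no hexamer. For these medians the classes follow the hexamers of the counted list, which were the same for 136 of the 137 hosts in both lists. Of the 140 counted sisRNAs, 3 were not in the longer list of hosts. No length was given for the sisRNAs, so a count is not a level per base. Intervals on counts cover counting error alone, and whether several reads were copies of 1 molecule is not known here. Intervals on shares are taken over genes, which are not replicates.

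**Figure D2:**
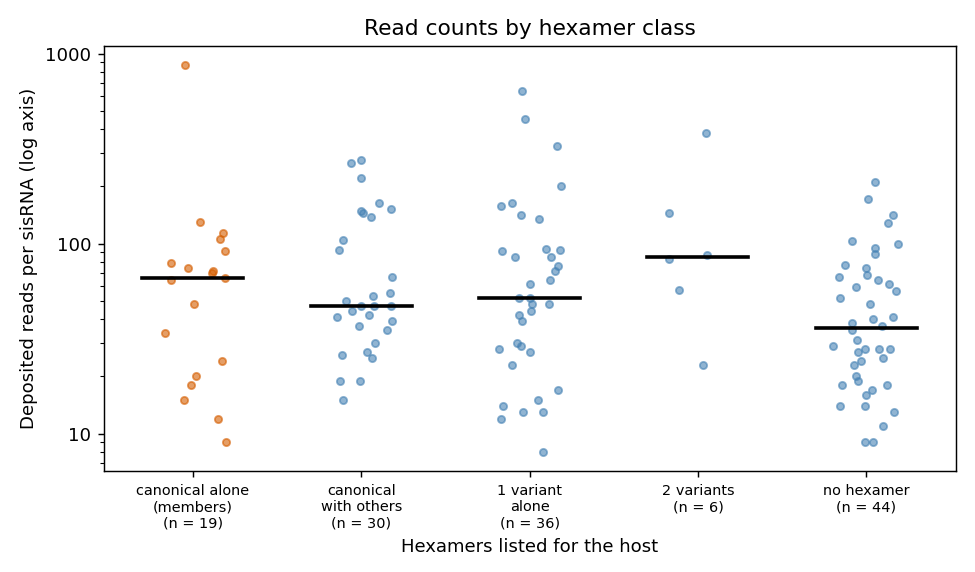
Deposited reads per sisRNA on a log axis by the hexamers that the counted list gives for the host. Each point is 1 sisRNA and the black bar is the median of the class. The 19 members (orange) have a median of 66 reads and span 9 to 869, and their range overlaps that of each other class (blue).

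One member stood far above the rest. The sisRNA of CG11008, annotated today as CG42588 and centred at position 12808186 of arm 3L (positions of sisRNA centres are in dm3), had 869 reads and so 45.4% of all reads of the members. It exceeded the next member, spred, by a ratio of 6.68 (exact 95% interval 5.55 to 8.10). Without CG11008 the other 18 members held 1046 reads, 9.37% of the list, and their median was 65. Between neighbours in the order of the remaining members the ratio of counts had an interval that included 1 in 17 of 17 pairs, so their order is not resolved step by step.

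The counted members with a role in gene expression were CG5941, RpII215 and CG14438. The sisRNA of CG5941, annotated as MCTS1, a factor for re-initiation of translation, had 91 reads (exact Poisson 95% interval 73.3 to 112) at 5932801 on X. RpII215, which encodes the largest subunit of RNA polymerase II, had 79 reads (62.5 to 98.5) at 11463815 on X. CG14438, annotated as sov (small ovary), a gene needed for heterochromatin in the ovary, had 70 reads (54.6 to 88.4) at 6651020 on X. The intervals of these 3 counts overlapped, and each count lay above the median of the whole list.

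The signalling and membrane genes with a count were spred and csp. The sisRNA of spred, a Sprouty-related inhibitor of Ras signalling, had 130 reads (109 to 154) at 10656431 on 2R and ranked 23 of 140. That of csp, the cysteine string protein, a co-chaperone of synaptic vesicles, had 64 reads (49.3 to 81.7) at 22263199 on 3L. The current annotation names an RNA gene, sisRNA:3, inside an intron of csp on the same strand, at 3L:22269932-22270220 in BDGP6, with a length of 289 bases. It was the one annotated sisRNA gene inside a member, whereas 5 of the 295 hosts held one. Whether the deposited count belongs to sisRNA:3 was not tested, because the positions are given in different builds.

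Among the metabolic members the counts were low to middling. CG3209, annotated as Gpat4, an acyltransferase of glycerolipid synthesis, had 66 reads (51.0 to 84.0) at 19958036 on 2R. RnrS, the small subunit of ribonucleotide reductase, which makes the precursors of DNA, had 34 reads (23.5 to 47.5) at 7872101 on 2R. Vha55, a subunit of the vacuolar proton pump, had 18 reads (10.7 to 28.4) at 8453061 on 3R. CG1753, which bears the name Cbs in the annotation, for cystathionine beta-synthase, was the lowest member with 9 reads (4.12 to 17.1) at 20916438 on X. Its centre lay 1992 bases from that of Mgstl, which had 44 reads, and whether reads were shared between them was not tested. The intervals of CG3209 and CG1753 did not overlap.

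Among the counted members to which no role is given here, CG15439 on 2L had 114 reads (94.0 to 137) at 4450563 and was the single counted member of that arm. CG9795 had 106 reads (86.8 to 128) at 145786 on 3R, close to the centromere, within the nearest 10% of genes of its arm. CG7852, annotated as pns, had 72 reads (56.3 to 90.7) at 1541216 on 3L. These 3 stood above the median of all counted sisRNAs. At 48 reads (35.4 to 63.6) CG30020, at 6776619 on 2R, equalled that median. Below it were CG8578 with 24 reads (15.4 to 35.7) at 15740663 on X and CG5514, annotated as BOD1, with 20 reads (12.2 to 30.9) at 23767910 on 3R. Cak, at 17644554 on 3R, had 12 reads (6.20 to 21.0).

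An annotated gene on the opposite strand overlapped 3 counted members, which were CG14438 (lncRNA:CR43496), CG30020 (cag) and CG11638. CG11638 on X had 74 reads (58.1 to 92.9) at 920367, and su(w[a]), a host without any listed hexamer, had 95 reads centred 15317 bases away. In the BDGP6 annotation su(w[a]) lies on the opposite strand and spans all 12720 bases of CG11638. It was the one case in which a member overlapped another listed host. CG4068, annotated as CG44774, had 15 reads (8.40 to 24.7) at 4831275 on X, and its locus is known in flies as a source of endogenous small interfering RNAs from a long hairpin. The annotated hairpin RNA, hpRNA:CR46342 at X:4921677-4928133 in BDGP6, overlapped the gene on the same strand by 1470 bases. Neither labels nor lists say whether strand was used in counting, so overlapping transcripts cannot be told apart.

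**Figure D3:**
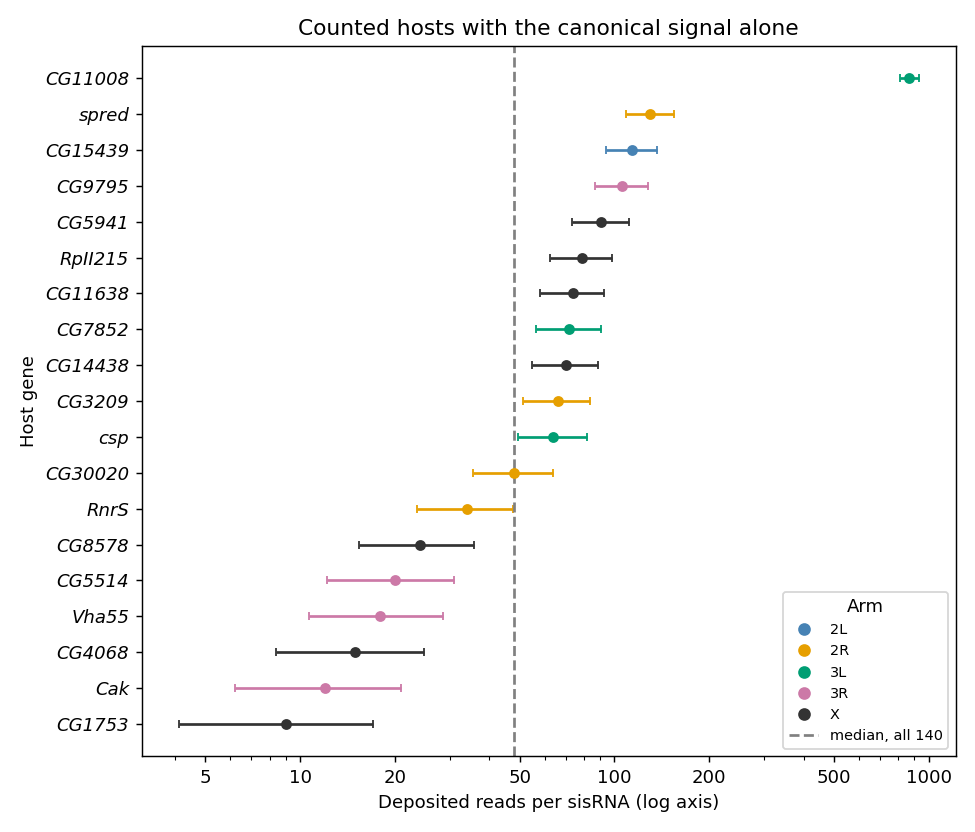
Deposited reads per sisRNA on a log axis for the 19 counted members, coloured by chromosome arm; bars are exact 95% Poisson intervals and the dashed line is the median of all 140 counted sisRNAs (48 reads). CG11008 lies at 869 reads, 10 further members lie between 64 and 130, and 8 lie at 48 or below.

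The 53 members without a read count included 36 of the 45 to which a role is given here. Of 17 genes put on a list of the nuclear cleavage and polyadenylation machinery, 16 matched the annotation, 4 were hosts and 3 of these were members. They were hrg, which encodes poly(A) polymerase, Pabp2, the nuclear poly(A)-binding protein, and Pcf11, a factor that couples cleavage to the end of transcription. Members made up 72 of all 295 hosts, and the list was chosen with earlier results known, so 3 of 4 is given as a description. Whether the listed hexamer acts in these genes was not tested. The 3 genes all lay on 2R, and they had no count, as was so for 53 of the 72 members. Their longest annotated introns were short to moderate, with 858 bases in hrg, 406 in Pabp2 and 1750 in Pcf11. The remaining host of that list carried the canonical signal with a variant. Other RNA genes among the uncounted members were Hel25E (UAP56, a helicase of splicing and mRNA export), mub (a KH-domain RNA-binding protein), Nup98 (a nuclear pore protein), CG7358 (annotated as Flacc, of the complex that methylates adenosine in mRNA) and CG2950 (annotated as mxt, a translational regulator). Of the 9 members grouped under RNA processing, export and translation, 1 had a count, which was CG5941.

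Of the 10 signalling genes 1 had a count (exact 95% interval 0.253% to 44.5%), an interval that includes the 26.4% of all members. The uncounted ones included dl, the NF-kappaB factor Dorsal, and cact, its inhibitor Cactus, both on 2L, which together set the dorsoventral axis of the embryo from maternal stores. The authors remarked beside dl that it lies next to CG33928. The other uncounted signalling members were sgg (the GSK3 kinase), CaMKII (the calcium/calmodulin-dependent kinase), Btk29A (a Tec-family tyrosine kinase), for (a cGMP-dependent kinase), PRL-1 and Ptp61f (protein phosphatases) and Stat92E (the transcription factor of the JAK-STAT pathway). Several have very long introns. The longest annotated intron was 126467 bases in Ptp61f, 27819 in sgg, 20864 in for and 20728 in Btk29A.

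Of the 8 genes of transcription and chromatin 2 had a count, RpII215 and CG14438. Those without were Trf2 (a TBP-related factor), mip130 (of the Myb-MuvB complex), Nurf-38 (a subunit of the NURF remodeller), Nipped-A (the fly TRRAP, of histone acetyltransferase complexes), CG8092 (annotated as row, a zinc-finger protein) and BtbVII (a BTB-domain protein). Of the 8 genes of small GTPases, membranes and cytoskeleton 1 had a count, csp. The others were Arf79F (the Arf1 GTPase of vesicle coats), rtGEF and CG16728 (annotated as Git), whose proteins bind each other in animals, RhoGAP71E, α-adaptin (of the AP-2 clathrin adaptor), scra (anillin, of the cleavage furrow) and CG30193 (annotated as ReepA, of a family that shapes the endoplasmic reticulum). Metabolism, transport and protein handling had 4 of 10 with a count. The 6 without were Gpdh (glycerol-3-phosphate dehydrogenase), oda (ornithine decarboxylase antizyme), ERp60 (a protein disulfide isomerase), CG8177 (annotated as the anion exchanger Ae2), svr (a carboxypeptidase) and CG32479 (annotated as the deubiquitinase Usp10).

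The 27 members to which no role was given had 10 with a count (37.0%, 19.4% to 57.6%). The 17 without were CG2201, CG31782 and drongo on 2L, CG17508, CG30387, MESK2 and Mlf on 2R, enc on 3L, CG2656, CG2926 and CG8036 on 3R, and c12.2, CG10962, CG17600, CG32685, CG32795 and CG42271 on X. The roles were assigned after the members had been seen, and the groups are too small for their shares to be told apart. Of the other lists, signalling and polarity gave 2 members of 32 genes (dl and sgg) and 3 hosts, vesicle traffic and membranes 2 of 19 (Arf79F and α-adaptin) and 2 hosts, and splicing and RNA binding 1 of 26 (mub) and 3 hosts. The lists of known sisRNA hosts, cytoplasmic poly(A) control, chromatin and transcription, cell cycle and egg activation, and ubiquitin and protein turnover held 1, 3, 3, 2 and 2 hosts and no member. Every host on the lists of known sisRNA hosts and of cytoplasmic poly(A) control was among the 28 genes left out by name. The rule itself therefore allowed no member there. Each list holds selected genes and not the whole class, so members with a like role that is given above, such as Trf2 or CG32479, are not on them. None of the 19 genes listed for ion channels and neurons was a host, nor any of the 18 listed for follicle cells, the cells that surround the oocyte. This covers the listed genes alone, and csp, with its role at synaptic vesicles, is not among them.

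By arm the members numbered 19 on 2R (26.4%, 16.7% to 38.1%), 18 on X (25.0%), 14 on 2L (19.4%), 11 on 3L (15.3%), 9 on 3R (12.5%, 5.88% to 22.4%) and 1 on chromosome 4. Over all hosts the shares were 19.7% on 2R, 22.0% on X, 16.3% on 2L, 20.3% on 3L and 21.4% on 3R. Each of these lay inside the interval of the members. Of the 223 other hosts alone, 24.2% lay on 3R, just outside it, and with the named genes left out there too 22.1% did, inside it. The share near centromeres was close to that of the list. Of the 69 members with a place on a main arm, 12 lay within the 10% of genes closest to the centromere (17.4%, 9.32% to 28.4%), beside 51 of 286 hosts (17.8%). These were CG2201 and rtGEF on 2L, CG17508, Nipped-A and scra on 2R, Arf79F, csp and mub on 3L, CG9795 and CG2926 on 3R, and CG1753 and CG17600 on X. Of the 12, csp, CG9795 and CG1753 had a count.

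The members were long genes with long introns, as hosts were in general. In the BDGP6 annotation 70 of the 72 could be matched, and their longest intron had a median of 2090.5 bases (order-statistic 95% interval 1598 to 5074). The median was 1906 bases (1399 to 2439, n = 289) over all hosts and 254 bases over the 11819 intron-containing genes that code for protein. The longest introns of the members ranged from 161 bases in scra to 126467 in Ptp61f. The median was 4468 bases without the members on 2R. Which intron gives each sisRNA is not known here, since the centres and the annotation are in different builds.

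Introns were shorter in counted than in uncounted hosts, among members within overlapping intervals. The 18 counted members with a match had a median longest intron of 1269.5 bases (599 to 2462), against 4590 bases (1782 to 6917) for the 52 without a count. The other hosts had 1092.5 bases (852 to 1432, n = 118) against 3233 (2287 to 5138, n = 101), with intervals apart. All matched hosts were divided into 3 bins of equal size by longest intron. In the bin of short introns 8 of 22 members with a longest intron of up to 935 bases had a count (36.4%, 17.2% to 59.3%), where 54 of 75 other hosts did (72.0%, 60.4% to 81.8%). In the middle bin, up to 4554 bases, the numbers were 8 of 19 (42.1%, 20.3% to 66.5%) and 40 of 77 (51.9%). Above 4554 bases they were 2 of 29 (6.90%, 0.846% to 22.8%) and 24 of 67 (35.8%, 24.5% to 48.5%). The 2 members in the bin of long introns with a count were CG11638, with a longest intron of 9805 bases, and CG4068, with 7909. The share with a count was therefore lower among members than among the pooled other hosts in each bin. The intervals were apart in the long bin, also with the named genes left out of the other hosts too (22 of 61, 24.2% to 49.4%). In the short bin they were apart as given, but overlapped with the named genes left out of the other hosts too (45 of 65, 56.6% to 80.1%) or kept among the hosts with the canonical signal alone (11 of 25, 24.4% to 65.1%). Hosts with 1 variant alone also had few counts in the long bin, with 2 of 13 (15.4%, 1.92% to 45.4%), an interval that overlapped that of the members. The intervals of all other single classes overlapped that of the members there too, most narrowly no hexamer with 10 of 24 (41.7%, 22.1% to 63.4%). In the short bin each single class also overlapped the members, most narrowly no hexamer with 24 of 32 (75.0%, 56.6% to 88.5%). The intervals were thus apart only against the pooled other hosts. With the members' own spread over the bins, the rates of the other hosts would give 51.6%, where the matched members had 25.7%. Of the single classes, 1 variant alone would give 39.2%, no hexamer 54.4% and the canonical signal with a variant 57.3%.

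**Figure D4:**
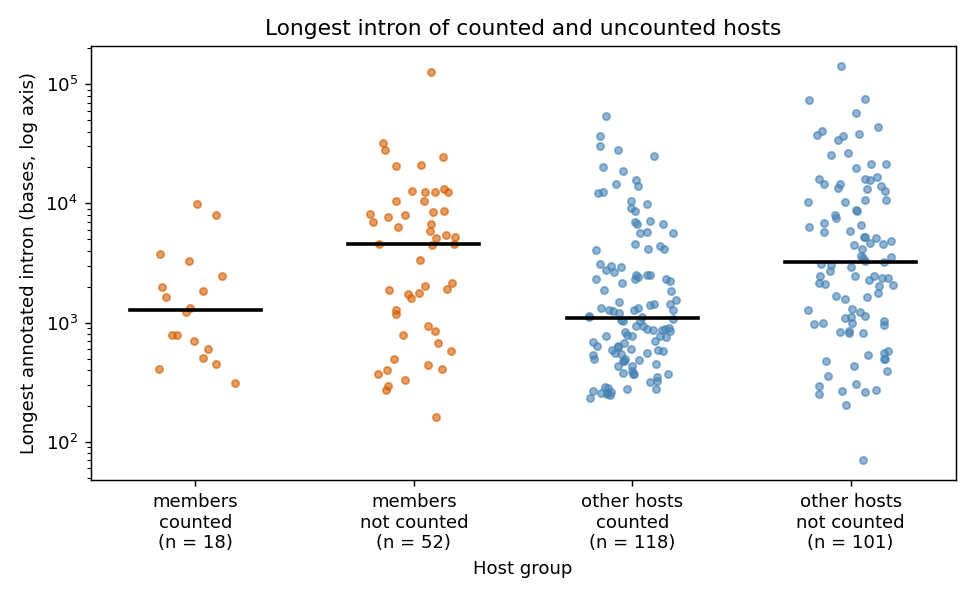
Longest annotated intron of each host on a log axis, for members (orange) and other hosts (blue) with and without a read count; each point is 1 gene matched to the annotation and black bars are medians. The medians are 1269.5 and 4590 bases for counted and uncounted members and 1092.5 and 3233 bases for the other hosts.

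Other annotated features were compared in the same way. A gene on the opposite strand overlapped 28 of the 70 matched members (40.0%, 28.5% to 52.4%), beside 39.4% of all matched hosts. Among counted members the number was 3 of 18 (16.7%, 3.58% to 41.4%) and among uncounted members 25 of 52 (48.1%, 34.0% to 62.4%). These intervals overlapped. The other hosts had 28.8% and 51.5%. Annotated microRNA, small nucleolar or small Cajal body RNA genes lay on the same strand inside 6 members, beside 16 of all 289 matched hosts (small nuclear and hairpin RNA genes were also sought). In the members they were mir-2b-1 in Btk29A, mir-4972 in for, mir-281-1 and mir-281-2 in oda, a snoRNA gene in Arf79F, a pair of snoRNA genes in CG32479 and a scaRNA gene in CG2926. None of the 6 had a read count, and 0 of the 18 counted members held such a gene, which allows a share of up to 18.5%. Over all matched hosts 3 of 136 with a count and 13 of 153 without one held such a gene, so most hosts with one were uncounted in the whole list. Annotated transposable elements overlapped 15 of the 70 members (21.4%, 12.5% to 32.9%) and 19.2% of the other hosts, with 55 elements in Nipped-A, 9 in CaMKII and 7 in CG2201. Genes of counted members had a median length of 6373 bases (3959 to 9778) and those of uncounted members 9806 (6748 to 13535), and the part of length in these feature counts was not tested.

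In either list, 5 members had a remark that was read here as an antisense transcript (6.94%, 2.29% to 15.5%), against 8.14% of all hosts. These were Gpdh, CG14438, CG4068 and Trf2, marked with a cis-NAT (a natural antisense transcript of the same place), and CG8036, marked AS. The remark AS is not spelled out, and taking it as antisense is a reading made here. CG14438 and CG4068 had the read counts given above. The annotation places a gene on the opposite strand of 4 of the 5. These are lncRNA:CR44986 for Gpdh, lncRNA:CR43496 for CG14438, lawc for Trf2, and p with 3 tRNA genes for CG8036. For CG4068 it places none. A further 24 members without such a mark overlapped an opposite-strand gene, such as cact, which overlapped the cell cycle gene fzy.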

How the data were processed

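Egg RNA was isolated by the Trizol method before Illumina library preparation, per the labels' protocols. The submitters' processing notes name the genome build dm3. The aligner, the counter and the rule for calling sisRNAs were not given in the sources used here. Whole-number read counts per sisRNA were what the authors deposited, in 1 column that names no library, beside a longer list of hosts with hexamers as text. Whether the counts were scaled, or summed over libraries, is not known here. Library depth is unknown, since 11169 reads is the sum of the list. The members and gene lists were chosen with earlier results of these data known, including the share of these hosts that had a count. Roles, bins of intron length and annotation features were chosen after the data were seen.

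Members were hosts whose hexamers were the most frequent one alone, without 28 genes named in the rule. Read counts were joined by symbol. Symbols were looked up in the BDGP6.54 annotation (Ensembl release 115) and among RefSeq synonyms, exactly for 42 members, by letter case for 5 and by synonym for 23, and CG31782 and Cak had no match. Hosts matched on another arm than listed were left out of gene lengths. No coordinate was moved between builds. Genes count as near the centromere when among the nearest 10% of protein-coding genes with an intron on their arm. A transcript feature overlaps a gene when they share a base.

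Every counted member was named with its value. Intervals are exact Poisson, exact Clopper-Pearson and order-statistic 95% intervals, checked on simulated data, and no test was made, because no value has a replicate. The planned comparison of polyA-minus with polyA-plus reads needs a value per library and was not made. Computation used Python 3.11.15, numpy 2.4.6, scipy 1.17.1 and matplotlib 3.10.9.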

Additional observations from a re-analysis of the deposited data

How the results depend on the processing

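The share of members with a read count was between 22.2% and 35.5% under 10 of 10 alternatives, inside the interval of the main value of 26.4%. The alternatives were keeping the named genes, leaving out each arm or the antisense remarks, taking any host with the canonical signal, and matching symbols through synonyms. Synonyms added no counted member and so could not move the share, and the settings without an arm have most of their genes in common. Among the other hosts the share was 52.9%, and 51.3% with the named genes left out there too, which was added after seeing the data. The median read count was between 47.5 and 72 under 13 of 13 alternatives, which included minimums of 10 and 20 reads, the hexamers of the counted list and leaving out CG11008. The lowest value came from taking any host with the canonical signal. Using the hexamers of the counted list, or leaving out sisRNAs with 2 listed centres, changed no member and so could not move the median. The median longest intron was between 1988 and 4468 bases without each arm, the highest without 2R. Gene length in its place gave a median of 7674 bases, which is another quantity. The shares on the 5 arms stayed within their intervals with the named genes kept. No paired analysis was possible because the groups had a single library each, with read counts tied to no library. With 19 counted members, the interval of their median ran from 20 to 91 reads, so a small difference from other classes could not be seen. No interval was computed for such a difference.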

Other observations

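The 8 hosts set aside by name also carried the canonical signal alone. Of these 5 had a read count (62.5%, exact 95% interval 24.5% to 91.5%), with a median of 53 reads and a range from 21 to 69. Of the 10 genes that the annotation names as sisRNA, 5 lie inside a listed host. The hosts of 3 of them carried the canonical signal alone, csp with 64 reads and, among the genes set aside, rga with 53 and RpS27 with 69. The other hosts were mbt with 42 reads, listed with the first variant, and CG9775, listed with the second variant and without a count. In the whole list 80 of 295 hosts carried the canonical signal alone, and 46.4% of all hosts had a count. With 5 such hosts no difference from these shares was resolved. The genes named here were chosen after their values had been seen.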
